A study of Homo sapiens with 4 samples.

Results

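The genes described here encode KEL and other carriers of red cell blood group antigens: KEL, XK, GYPB, GYPC, RHAG, RHD, RHCE, ERMAP and BCAM. They were taken by gene symbol from the 4 deposited tables, in which all 9 were found among 28285 gene rows. The set was selected on KEL, which was chosen by its TPM values as one of the strongest rises between the compared fractions, and the other genes were added as red cell antigen carriers, so the difference between fractions in these genes is given as a description, without a test. The cells were differentiated from H1, a widely used line of human embryonic stem cells, with an enhanced green fluorescent protein (eGFP) reporter knocked into GATA2, the gene of a zinc-finger transcription factor of blood progenitors. Every library carries this knock-in and a title that names Cre without giving its role, and the labels do not say whether the line was a single clone. After differentiation, cells positive for CD34 and CD31 and negative for CD43 were sorted. The GFP-positive group (2 libraries) has eGFP and was labelled hemogenic endothelium, the endothelium that gives rise to blood. The GFP-negative group (2 libraries) lacks eGFP and was labelled endothelial cells, although all 4 source names read hemogenic endothelium.

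Blood group antigens are inherited differences in the proteins and sugars of the red cell surface. KEL is a zinc endopeptidase of the neprilysin family that is linked by a disulfide bond to XK, a multi-pass membrane protein with lipid scramblase relatives. RHD and RHCE carry the Rh antigens and need the ammonium channel relative RHAG to reach the membrane. GYPB and GYPC are sialic acid-rich glycophorins, of which GYPC anchors the membrane to the spectrin skeleton through protein band 4.1. ERMAP, of the butyrophilin family, carries the Scianna antigens, and BCAM, a laminin receptor that endothelium and epithelium also use, carries the Lutheran antigens. GATA factors bind a short motif built around the letters that give them their name, and are well known as regulators of erythroid genes.

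The sequences before the gene starts are shown because the fractions were sorted on a GATA2 reporter; KEL, GYPB and RHAG were higher in the GFP-positive fraction, GYPC was lower and BCAM overlapped. RefSeq windows (GRCh38.p14) of 250 bases before the start were available for 8 of the 9 genes, in 13 windows because some genes have 2 starts. Each window was searched on both strands for the GATA motif in its form AGATAA, its form AGATAG, its form TGATAA and its form TGATAG, none of which can match at the same place, and matches are in capitals; a match on the opposite strand reads as the reverse complement. The windows are chr7:142962364-142962613 (minus strand) for KEL, chr4:144019346-144019595 (minus) for GYPB, chr6:49636840-49637089 (minus) for RHAG, chr2:126655908-126656157 (plus) for GYPC and chr19:44808809-44809058 (plus) for BCAM.
KEL: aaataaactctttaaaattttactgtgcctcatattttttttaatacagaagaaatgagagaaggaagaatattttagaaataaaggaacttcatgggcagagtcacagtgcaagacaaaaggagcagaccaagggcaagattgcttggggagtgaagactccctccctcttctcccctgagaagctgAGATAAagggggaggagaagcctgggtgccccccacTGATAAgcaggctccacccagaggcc
GYPB: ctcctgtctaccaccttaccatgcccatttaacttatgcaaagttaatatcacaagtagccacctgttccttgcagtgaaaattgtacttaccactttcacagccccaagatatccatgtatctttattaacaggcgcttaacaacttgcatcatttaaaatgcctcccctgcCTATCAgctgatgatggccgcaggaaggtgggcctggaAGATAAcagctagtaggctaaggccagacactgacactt
RHAG: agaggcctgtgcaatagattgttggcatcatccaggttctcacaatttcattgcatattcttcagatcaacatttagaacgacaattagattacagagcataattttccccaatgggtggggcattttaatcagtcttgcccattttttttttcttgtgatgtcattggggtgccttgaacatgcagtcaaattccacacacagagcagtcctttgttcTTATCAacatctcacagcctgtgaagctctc
GYPC: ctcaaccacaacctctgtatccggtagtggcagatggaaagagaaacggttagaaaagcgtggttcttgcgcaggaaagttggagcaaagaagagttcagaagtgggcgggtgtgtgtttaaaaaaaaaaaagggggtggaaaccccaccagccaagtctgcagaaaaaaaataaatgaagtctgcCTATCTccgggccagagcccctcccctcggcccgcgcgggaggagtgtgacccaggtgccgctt
BCAM: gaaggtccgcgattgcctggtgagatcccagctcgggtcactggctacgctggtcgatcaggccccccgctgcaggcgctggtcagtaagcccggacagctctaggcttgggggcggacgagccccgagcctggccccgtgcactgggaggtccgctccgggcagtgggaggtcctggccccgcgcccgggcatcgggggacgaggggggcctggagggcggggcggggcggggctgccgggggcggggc

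KEL had 2 matches, AGATAA from position -62 to -57 and TGATAA from -26 to -21, both on the strand of the gene, counting the last base before the start as -1. Positions depend on the start used: the KEL window lies inside the KEL gene as annotated in GENCODE v29, as does most of the GYPC window. At least 2 matches were found in 4.96% of all 35116 RefSeq windows of this length, and at least 1 in 22.3%. GYPB had 2 at the start shown and 1 at its other start, RHAG had 1 from -31 to -26, and BCAM had 0 at both of its starts. Matches were found before genes that were higher, lower or alike between the fractions. GYPC, which was lower in GFP-positive cells, had 1 from -64 to -59. ERMAP, at a like level in both fractions, had 2 at the second of its starts. RHD, listed at 0 in GFP-positive cells, had 1 at both starts. Whether matches go with the differences was not tested. Of the 8 genes, 7 had a match at 1 or more starts, beside 26.2% of all 27305 gene symbols. A match at every start listed was found for 5, but the share of all symbols with this was not computed, so nothing is read from it. RHD and RHCE share much of their upstream sequence, so their matches are not separate. A looser search for CCNCNCCC, a form of the CACCC box bound by KLF factors, matched 53.4% of all windows and is not marked. These are matches of letters and do not show binding.

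**Figure D1:**
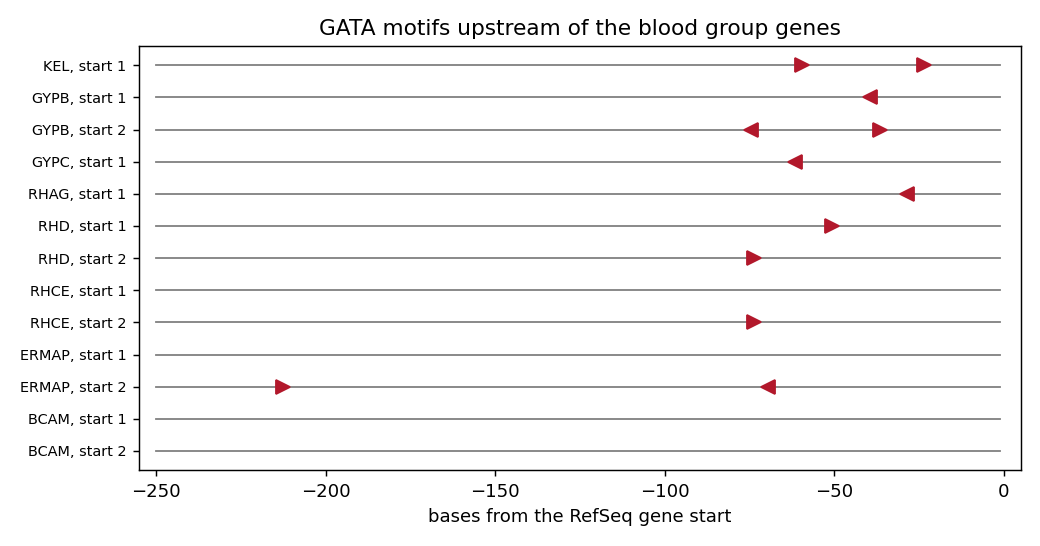
Positions of the GATA motif in the 250 bases before each RefSeq start of the 8 blood group genes with a window, in bases from the start; triangles point right for a match on the strand of the gene and left for the opposite strand. KEL has 2 matches, as have the second starts of GYPB and ERMAP. Neither BCAM window has one, nor has the first start of RHCE or of ERMAP.

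Levels are given as TPM, in which transcript length has been divided out and each library is scaled to the same total, so different genes can be compared within a library. TPM does not give the depth of a library, and depth was not estimated here beyond the value of a read used for XK. Whether replicates are separate cultures is not stated, so the spread between them, and the p-values that rest on it, may be technical. The endothelial identity was visible in both fractions: the summed level of 9 endothelial markers was 2419 and 2626 TPM in the GFP-positive libraries and 4951 and 4517 TPM in the GFP-negative libraries. Cells were sorted for CD34, 1 of the 9, so its presence in both was set by the sort. CD34 had 458 and 536 TPM in the GFP-positive libraries and 1232 and 1199 TPM in the GFP-negative libraries. PECAM1, the gene of CD31, is not analysed here. In a limma fit of log2(TPM + 1) over 15425 genes (those reaching 1 TPM in 2 or more libraries), 0.447% of genes passed at 0.05 after Benjamini-Hochberg adjustment, 0.123% as higher in the GFP-positive fraction and 0.324% as lower, and 14.1% had an unadjusted p under 0.05. These calls depend on the settings: limma called 0 genes with a pseudocount of 0.1, where 2101 had an unadjusted p under 0.05, and likewise 0 without the filter (2386) or the variance trend (2072). Of the 9 endothelial markers, 1 fell, CD34, a call lost in limma when replicate 1 of the GFP-positive or of the GFP-negative fraction was left out (adjusted p = 0.0504 and 0.0908), and all 9 had a log2 fold change below 0. In 44.3% of genes the 2 fractions did not overlap, with the GFP-positive libraries above in 22.8% and below in 21.5%. Of the 9 blood group genes, 8 entered this fit and RHD did not. KEL was the 1 of the 8 that passed, and it was chosen for that, so nothing is read from the count.

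KEL (ENSG00000197993; chromosome 7, 142941114 to 142962681, minus strand; all gene positions are from GENCODE v29, build GRCh38) had 97.9 and 115 TPM in GFP-positive replicates 1 and 2, and 11.3 and 12.9 TPM in GFP-negative replicates 1 and 2. Both GFP-positive libraries were high and replicates lay close together in both fractions. The means were 106 ± 11.8 TPM and 12.1 ± 1.12 TPM (SD, n = 2), an 8.75-fold difference. On the log2(TPM + 1) scale, which understates changes of low genes, the difference was 3.03 ± 0.23 (SE), the 28th highest of the 15425 genes. The level of KEL exceeded that of 86.2% and 88.2% of these genes in the GFP-positive libraries, and that of 38.9% and 41.7% in the GFP-negative libraries. KEL was thus below the middle of these genes in one fraction and in the upper part in the other. In bulk libraries, more cells that make a transcript and more of it per cell cannot be told apart.

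XK (ENSG00000047597; chromosome X, 37685756 to 37732130, plus strand), the protein partner of KEL, was far less abundant. It had 1.92 and 1.81 TPM in the GFP-positive libraries and 0.32 and 0.14 TPM in the GFP-negative libraries, without overlap. The ratio of mean TPM, 8.11, stood near that of KEL, while the log2(TPM + 1) difference was 1.22 ± 0.53 (SE). XK entered the fit only through the fraction in which it was high. XK has 1 annotated transcript, of 5209 nt, and TPM multiplied by length takes stepped values in such genes, with 67.9% to 71.2% of low values within 0.15 of a whole step, against 30% if evenly spread. If a step is a read, XK had 15.8 and 9.8 reads in the GFP-positive libraries and 2.9 and 1.0 in the GFP-negative libraries, so its ratio rests on a few reads. At these levels KEL transcripts exceeded XK transcripts by a wide margin in all 4 libraries.

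RHAG (ENSG00000112077; chromosome 6, 49605158 to 49636884, minus strand), the companion of the Rh proteins, had 133 and 77.8 TPM in the GFP-positive libraries and 44.4 and 38.65 TPM in the GFP-negative libraries. GFP-positive replicate 1 was the highest and the fractions did not overlap. The means were 105 ± 38.8 TPM and 41.5 ± 4.09 TPM (SD, n = 2), a ratio of 2.53 and a log2(TPM + 1) difference of 1.27 ± 0.28 (SE). In GFP-negative cells RHAG was more abundant than KEL, whereas in GFP-positive cells their means were alike, with KEL above RHAG in replicate 2 and below it in replicate 1.

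The antigen-bearing Rh genes were near the limit of detection, unlike RHAG. RHD (ENSG00000187010; chromosome 1, 25272393 to 25330445, plus strand) was listed at 0 in GFP-positive replicates 1 and 2, against 0.69 and 0.35 TPM in GFP-negative replicates 1 and 2, too low to enter the fit. RHCE (ENSG00000188672; chromosome 1, 25362249 to 25430192, minus strand) had 0.89 and 3.44 TPM in the GFP-positive libraries and 2.42 and 1.39 TPM in the GFP-negative libraries. The 2 fractions overlapped, and the log2(TPM + 1) difference of RHCE was 0.02 ± 0.62 (SE). The 2 genes are close relatives: 14.6% of the 50-nt windows of annotated RHD coding transcripts also occur in RHCE, and 20.8% of those of RHCE occur in RHD. How reads were shared between them is not given in the sources used here, so the split between RHD and RHCE is uncertain. Both also overlap an abundant gene on the opposite strand, RSRP1 (143 to 171 TPM) and TMEM50A (100.2 to 136 TPM) respectively, and the labels do not say that counting used strand.

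**Figure D2:**
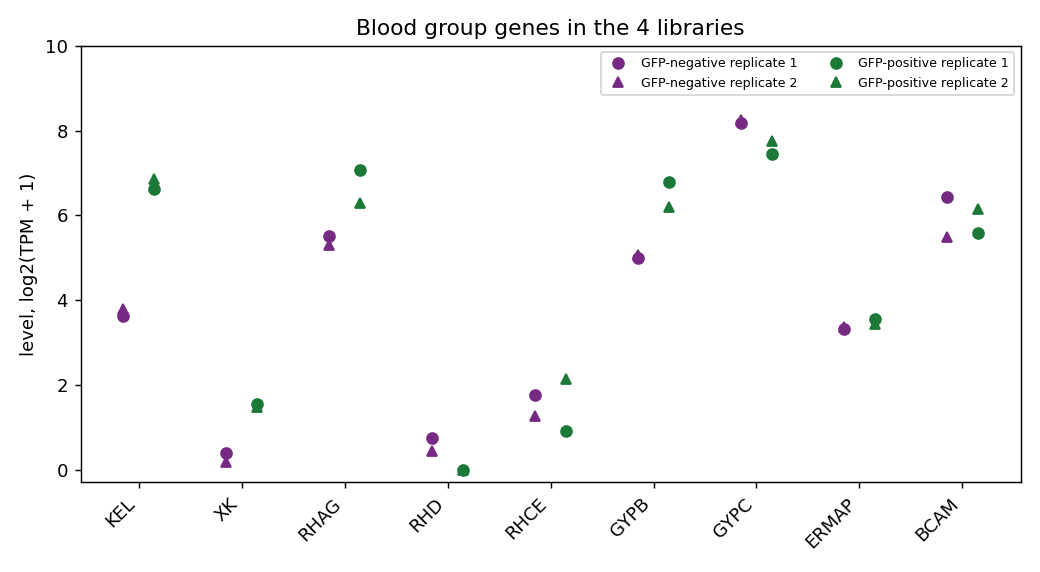
Level of each blood group gene as log2(TPM + 1) in the 4 libraries, GFP-negative in purple and GFP-positive in green, with circles for replicate 1 and triangles for replicate 2. KEL, XK, RHAG and GYPB lie higher in both GFP-positive libraries, GYPC lies lower, and the BCAM and RHCE points overlap between fractions.

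GYPB (ENSG00000250361; chromosome 4, 143996104 to 144019345, minus strand), which carries the S and s antigens, had 109.6 and 72.4 TPM in the GFP-positive libraries and 31.0 and 32.4 TPM in the GFP-negative libraries. Both GFP-positive libraries were higher, and replicate 1 was again above replicate 2, as for RHAG. The means were 91.0 ± 26.3 TPM and 31.7 ± 1.00 TPM (SD, n = 2), a ratio of 2.87 and a log2(TPM + 1) difference of 1.46 ± 0.25 (SE). GYPE is a close relative of GYPB on chromosome 4, and 2.71% of the 50-nt windows of GYPB coding transcripts also occur in GYPE, so reads from those windows could be counted for either gene.

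GYPE, whose level in GFP-negative cells was lower than that of GYPB, had a larger difference. It had 70.5 and 39.3 TPM in the GFP-positive libraries against 8.60 and 7.04 TPM in the GFP-negative libraries, without overlap and again with replicate 1 as the highest. The log2(TPM + 1) difference was 2.61 ± 0.36 (SE), and GYPE missed the threshold narrowly (limma adjusted p = 0.0548 over all genes). It passed in limma with only genes of a mean above 5 TPM (adjusted p = 0.0296) and with a replicate block. It missed with a pseudocount of 0.1 or 0.5, with upper quartile scaling, and without the filter or the variance trend. With GFP-positive replicate 2 left out, the difference was 3.03. Fits with a library left out leave 1 library in a fraction, so their calls are not listed here for GYPE. GYPB and GYPE together had 180 and 112 TPM in the GFP-positive libraries and 39.6 and 39.4 TPM in the GFP-negative libraries.

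GYPC (ENSG00000136732; chromosome 2, 126655933 to 126696670, plus strand) went the other way. It was the most abundant of the 9 genes in every library, with 173 and 214 TPM in the GFP-positive libraries and 291 and 306 TPM in the GFP-negative libraries, without overlap. The means were 193 ± 29.01 TPM and 299 ± 10.6 TPM (SD, n = 2), and the log2(TPM + 1) difference was -0.63 ± 0.16 (SE). GYPC is not related in sequence to GYPB despite its name, and is made in many tissues. MPP1 and EPB41, which bind GYPC in the red cell membrane, had 167 against 168 TPM and 90.1 against 64.1 TPM in GFP-positive and GFP-negative cells, with overlapping libraries for MPP1; EPB41 was chosen after its values were seen.

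ERMAP (ENSG00000164010; chromosome 1, 42817088 to 42844993, plus strand) was at a like, low level everywhere, with 10.8 and 9.81 TPM in the GFP-positive libraries and 8.98 and 9.37 TPM in the GFP-negative libraries. The fractions did not overlap, but the log2(TPM + 1) difference of 0.15 ± 0.35 (SE) was smaller than its error. SVBP, a gene on the opposite strand that overlaps ERMAP, had 58.5 to 76.2 TPM. BCAM (ENSG00000187244; chromosome 19, 44809059 to 44821421, plus strand) had 47.1 and 70.7 TPM in the GFP-positive libraries and 85.6 and 44.2 TPM in the GFP-negative libraries. The 2 fractions overlapped, with the highest and the lowest value both in GFP-negative cells, and the log2(TPM + 1) difference was -0.09 ± 0.36 (SE). LAMA5, a laminin chain that BCAM binds, had 149 and 177 TPM against 66.9 and 129 TPM, and missed the threshold (limma adjusted p = 0.335).

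By level, the order in GFP-positive cells ran GYPC, then KEL, RHAG, GYPB and BCAM, then ERMAP, RHCE, XK and RHD. KEL changed places with RHAG and GYPB between the 2 libraries, as RHCE did with XK, so these could not be ordered; RHAG was above GYPB in both, by less than the spread between replicates. In GFP-negative cells the order ran GYPC, BCAM, RHAG, GYPB, KEL, ERMAP, RHCE, RHD and XK, and BCAM was above RHAG in both libraries, by less than the spread of BCAM between replicates. The summed level of all 9 genes was 574 and 564 TPM in the GFP-positive libraries and 476 and 446 TPM in the GFP-negative libraries, with GYPC, which was lower in GFP-positive cells, as the largest part in each. Without the filter, the median log2 fold change of all 9 genes was 0.15. In 5 of the 9 (KEL, XK, RHAG, GYPB and ERMAP) the GFP-positive libraries lay above and in 2 (GYPC and RHD) below, beside 22.8% and 21.5% of the genes in the fit. KEL is among the 5 by choice, so nothing is read from this count.

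None of the other genes of blood group systems described here passed. Of 39 further blood group genes, 31 entered the fit, of which 0 rose and 0 fell in limma, with 6 at an unadjusted p under 0.05, beside 0.447% and 14.1% of all genes. Their median log2 fold change was 0.14, with 19 above 0 and 12 below. The most abundant were BSG, the Ok antigen carrier basigin, with 1077 against 978 TPM in GFP-positive and GFP-negative cells, CD44, the hyaluronan receptor of the Indian system, with 524 against 403 TPM, EMP3 with 444 against 276 TPM, and SLC44A2, a choline transporter-like protein, with 186 against 178 TPM. Their limma adjusted p-values were 0.705, 0.327, 0.225 and 0.934. SLC4A1, the anion exchanger band 3 that carries the Diego antigens, was listed at 0 in 3 libraries and at 0.38 TPM in GFP-negative replicate 2.

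**Figure D3:**
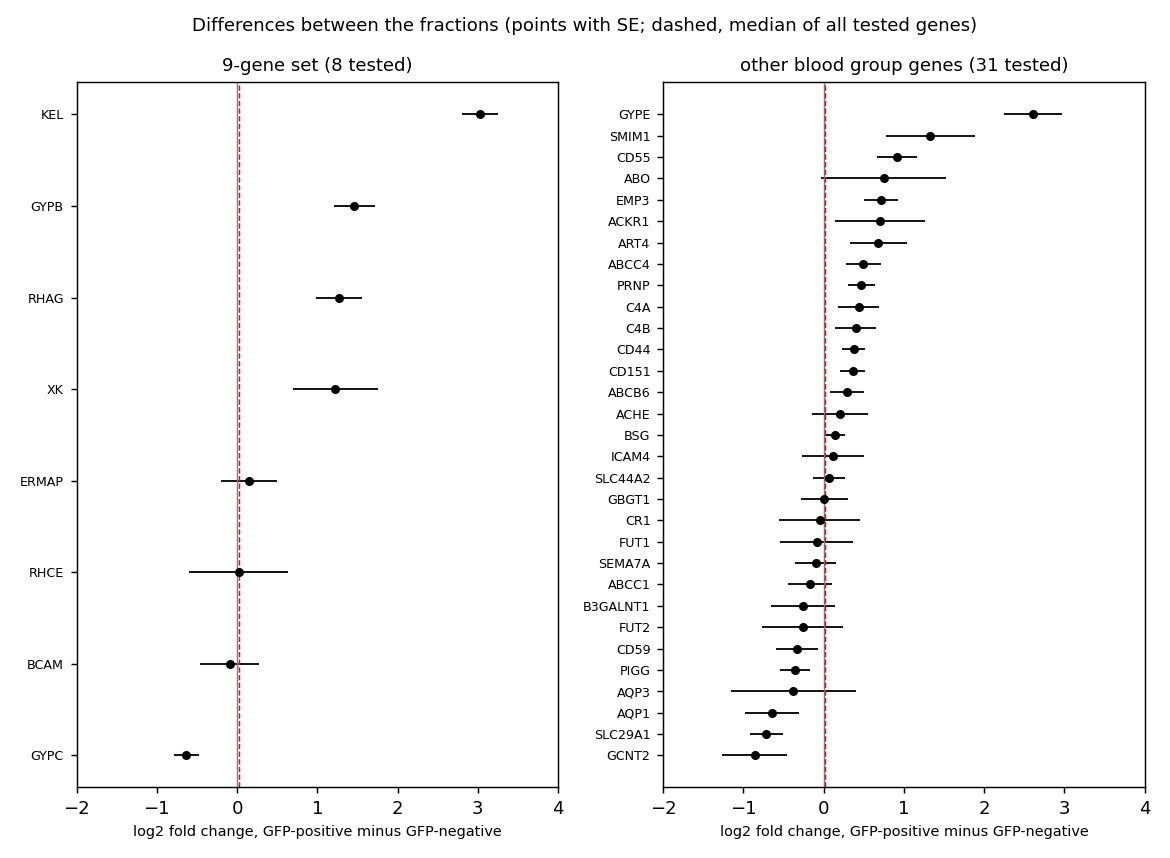
Log2 fold change (GFP-positive minus GFP-negative, on the log2(TPM + 1) scale) with its SE for the 8 tested blood group genes at left and 31 further blood group genes at right; the dashed red line is the median of all tested genes, 0.02. KEL stands at 3.03, and GYPE, at 2.61, leads the right panel.

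Relatives and partners of the 9 genes, 20 in the fit, also had 0 that rose and 0 that fell, with 2 at an unadjusted p under 0.05 in limma and a median log2 fold change of -0.03, beside 0.447% called and 14.1% at an unadjusted p under 0.05 among all genes. ECE1, an endothelin-converting enzyme of the same peptidase family as KEL, had 365 against 262 TPM (limma adjusted p = 0.282). EDN3, whose precursor KEL is known to cleave, was listed at 0 in all 4 libraries. CD47, which joins the Rh complex on red cells, had 38.2 against 38.9 TPM, and MCAM, an endothelial adhesion protein close to BCAM in structure, had 336 against 343 TPM.

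Among 11 membrane skeleton and associated genes in the fit, 0 rose and 0 fell in limma, with 5 at an unadjusted p under 0.05 and a median log2 fold change of -0.01, beside the same 0.447% and 14.1% of all genes. Members lay far apart in both directions. SPTB, the beta-spectrin of red cells, had 10.7 against 2.05 TPM, whereas ADD2, beta-adducin, had 3.21 against 22.2 TPM and DMTN, dematin, had 4.72 against 27.1 TPM in GFP-positive and GFP-negative cells; these 3 were chosen after their values were seen, and their limma adjusted p-values were 0.181, 0.0756 and 0.0774. Among the most abundant, SLC2A1, the glucose transporter, had 486 against 568 TPM, PIEZO1, a mechanosensitive channel that carries the Er antigens, had 181 against 300.4 TPM, and ADD1 had 183 against 207 TPM.

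Of 12 erythroid regulators, 3 rose and 0 fell in limma, beside the 0.447% of all genes that passed, and the median log2 fold change was 0.94. The sort on the GATA2 reporter selects for GATA2, and the list was chosen with earlier results known, so nothing is read from this count. GATA2, whose reporter was used for the sort, NFE2 and MYB rose (limma adjusted p = 0.0316, 0.0403 and 0.0439). All 3 lost the call with a pseudocount of 0.1, without the filter and without the variance trend. NFE2 and MYB also lost it when single libraries were left out and the filter was applied to the remaining libraries. For NFE2 this was without either GFP-positive replicate or GFP-negative replicate 1, and for MYB without any of the 4. KLF1, the factor that activates adult erythroid genes and whose loss of function is known for the In(Lu) type of low Lutheran antigen, had 30.9 and 22.4 TPM against 5.05 and 3.66 TPM, and missed the threshold (limma adjusted p = 0.069). GATA1, the erythroid GATA factor, had 17.6 and 8.40 TPM against 3.08 and 0 TPM (limma adjusted p = 0.212). KLF1 and GATA1 were chosen after their values were seen. TAL1, LMO2 and LDB1, which form a complex with GATA factors, had 231 against 336, 191 against 209.6 and 136 against 97.0 TPM, and none of them passed.

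Some erythroid markers were higher in the GFP-positive libraries, as KEL, RHAG and GYPB were, and others were not. The summed level of 14 erythroid markers was 261 and 125 TPM in the GFP-positive libraries against 22.7 and 19.0 TPM in the GFP-negative libraries. Of the 8 in the fit, 1 rose and 0 fell in limma, beside the 0.447% of all genes that passed. The 1 that rose was HBG2, a fetal gamma-globin gene with 90.6 and 45.7 TPM against 2.27 and 2.11 TPM. HBG2 lost the call with a pseudocount of 0.1, without the filter and without the variance trend. HBE1, the embryonic epsilon-globin gene, had 113 and 36.1 TPM against 7.87 and 2.72 TPM and missed the threshold (limma adjusted p = 0.0959). HBB, the adult beta-globin gene, and AHSP, the alpha-globin chaperone, were at 0 in all 4 libraries. ALAS2, the erythroid enzyme of heme synthesis, had 22.5 and 3.21 TPM against 3.31 and 0 TPM, with overlapping libraries. The alpha-globin genes differed: HBA2 overlapped, at 0 and 5.27 TPM against 1.2 and 0 TPM. HBA1 lay higher without overlap, at 21.1 and 24.7 TPM against 0 and 1.55 TPM (limma adjusted p = 0.06). How reads were shared between HBA1 and HBA2 is not given. HBG1 also lay higher without overlap, at 5.45 and 5.03 TPM against 0.9 and 0 TPM (limma adjusted p = 0.176). TFR2, a transferrin receptor, lay lower without overlap, at 4.56 and 2.81 TPM against 5.43 and 10.5 TPM (limma adjusted p = 0.493). The other 6 of the 14 were too low for the fit, and HBE1 and HBG2 made up most of the sum in the GFP-positive libraries. Of the other cell types, 6 megakaryocyte markers summed to 139 and 169.8 TPM against 73.3 and 86.4 TPM, and 6 mesenchymal markers to 609.75 and 666 TPM against 234 and 359 TPM. COL1A1 and COL3A1 made up most of the mesenchymal sum in every library, and the other mesenchymal markers overlapped between fractions. Leukocyte markers (5) summed to 25.9 and 29.5 TPM against 28.1 and 26.0 TPM, and myeloid markers (5) to 15 and 22.4 TPM against 13.7 and 15.3 TPM. Pluripotent markers (5) summed to 569 and 462 TPM against 395 and 386 TPM. LIN28A made up most of the pluripotent sum in every library, while POU5F1 lay lower in the GFP-positive libraries without overlap. Of the markers, GFP-positive replicate 1 had the higher erythroid sum, as it had the higher RHAG and GYPB level, whereas KEL was higher in replicate 2. The part of these marker differences in the results was not tested.

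**Figure D4:**
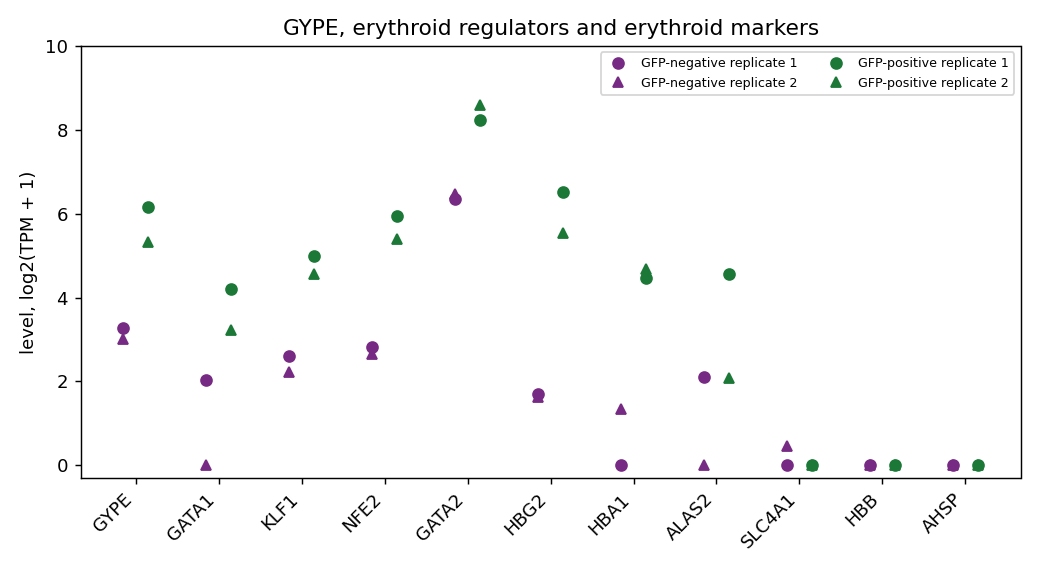
Levels as log2(TPM + 1) of GYPE, of 4 regulators and of 6 erythroid markers in the 4 libraries, GFP-negative in purple and GFP-positive in green, with circles for replicate 1 and triangles for replicate 2. KLF1, NFE2 and HBG2 lie higher in both GFP-positive libraries, while HBB and AHSP are at 0 throughout.

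The genes whose pattern over the 4 libraries lay nearest to that of KEL, by the Euclidean distance between centred log2(TPM + 1) profiles, were GRAMD2 (distance 0.182), HIST1H4K (0.428), MYLPF (0.435), AC104532.3 (0.457) and CTD-2134A5.3 (0.471). All 5 were listed at 0 in both GFP-negative libraries and had means of 5.41 to 9.92 TPM in GFP-positive cells, so they are like KEL in the size of the difference and not in level. With 4 libraries in 2 groups, this likeness describes little more than the difference between the groups.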

How the data were processed

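RNA of 2 GFP-positive and 2 GFP-negative libraries was harvested with Trizol and made into libraries with an Illumina TruSeq RNA kit, per the labels' protocols. The authors deposited 1 table per library with an Ensembl identifier, a symbol and a TPM value; TPM is read from the values, which sum to 996324 to 997293 per table. Bowtie and RSEM, and the builds hg19 and mm10 without their use, stand in the submitters' processing notes; the sources used here give no annotation, read length or strand setting. Groups and replicate numbers came from the titles. Where a symbol was repeated (87 cases), the row was used whose identifier carries that symbol in a current name table, otherwise the most abundant. Positions came from GENCODE v29, which holds 89.7% of the identifiers. Limma 3.58.1 (R 4.3.3) was fitted to log2(TPM + 1), with the variance allowed to follow the mean, for genes reaching 1 TPM in 2 or more libraries, two-sided, with Benjamini-Hochberg adjustment, and was checked on simulated data. Named were the 9 genes, and from each list other than the markers genes that passed, the 4 most abundant and near-identical copies; single markers, SLC4A1 and EDN3 were chosen after their values were seen. PECAM1, XKR7 and 1 further listed gene are not reported here. The members and lists were chosen with earlier results of these data known. Alternatives were the pseudocount, the filter, upper quartile scaling, no variance trend, a replicate block and each library left out. TPM gives no depth; reads were estimated for XK from the step between low values, and no counting interval is given.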

Additional observations from a re-analysis of the deposited data

How the results depend on the processing

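The folds of KEL, GYPB, RHAG, XK, GYPC and ERMAP kept their direction under every alternative that gave a value, from 2.92 to 3.14 for KEL, 1.17 to 1.76 for GYPB, 0.89 to 1.66 for RHAG, 1.12 to 2.63 for XK, -0.79 to -0.48 for GYPC and 0.09 to 0.21 for ERMAP (log2). In each of these genes the fractions did not overlap, so only upper quartile scaling could have reversed a direction. Nothing is read from the kept directions. RHCE turned below 0 with a pseudocount of 0.1 (-0.050) or 0.5 (-0.0055), with upper quartile scaling (-0.0037) and with libraries left out (from -0.60 when GFP-positive replicate 2 was left out to 0.64 when GFP-positive replicate 1 was, and -0.24 in the absence of GFP-negative replicate 2). BCAM turned above 0 without GFP-positive replicate 1 (0.20) or GFP-negative replicate 1 (0.38), with -0.56 as the lowest value, without GFP-negative replicate 2. XK had no value with a mean above 5 TPM or without either GFP-positive replicate, where it did not pass the filter. The median of the 8 genes tested, 0.69, includes KEL, for which the set was chosen, and XK; it was 0.15 without a filter, where RHD joins, and 0.21 (without GFP-positive replicate 2) to 0.85 over the fits to 3 libraries.

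Calls by limma over all genes numbered 0 higher and 0 lower with a pseudocount of 0.1, without a filter and without a variance trend, where 2101, 2386 and 2072 genes had an unadjusted p under 0.05. It called 50 higher and 114 lower with a mean above 5 TPM. When single libraries were left out and the filter applied to the remaining 3, the calls were 10 to 36 genes higher and 1 to 48 lower; with the filter kept from all 4 libraries, an alternative added after seeing the data, it called 0 in each case, so the range was 0 to 36 higher and 0 to 48 lower. A fraction left with 1 library is assumed to vary like the other. Of the further blood group genes, 1 rose with a mean above 5 TPM, and 0 to 1 with a library left out. The replicate numbers share only a number: the deviations of same-numbered libraries correlated at 0.0719 across genes. With the replicate block, limma called 228 genes higher and 368 lower, and 1 further blood group gene, GYPE, rose. Of the 9 genes, GYPB and RHAG then passed as higher beside KEL (limma adjusted p = 0.00979 and 0.0126) and GYPC as lower (limma adjusted p = 0.0391). In the main fit GYPB, RHAG and GYPC missed the threshold (limma adjusted p = 0.0831, 0.137 and 0.163). KEL missed it with a pseudocount of 0.1, without the filter and without the variance trend (limma adjusted p = 0.0638, 0.208 and 0.133). The genes were chosen with this contrast known, so nothing is read from these calls. Depth is not given, and values of a few TPM, such as those of XK, RHD and RHCE, rest on few reads.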

Other observations

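Genes near KEL on chromosome 7 did not share its level. Within 250000 bases of KEL in GENCODE v29, 23 other genes have a row in the tables, 16 of them at 0 in every library, and 3 were abundant enough for the fit. EPHB6, an Eph receptor gene and the most abundant of them, had 18.7 and 11.4 TPM in the GFP-positive libraries and 16.85 and 14.75 TPM in the GFP-negative libraries, with overlapping libraries. The calcium channel gene TRPV6 reached at most 0.44 TPM. This window was chosen after the data were seen.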
